A study of Mus musculus with 43 samples.

Results

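The small leucine-rich proteoglycans are a family of secreted matrix proteins, and 9 of their genes were followed here through every condition of a study of the transcription factors RUNX1 and RUNX2 in mouse fat. The genes Fmod, Dcn, Lum, Bgn, Ogn, Omd, Prelp, Aspn and Podn were chosen by symbol, and these 9 are among 26264 genes in each deposited count table. Members of the family fold into an arc of leucine-rich repeats, bind collagen fibrils and set their width and spacing, and many carry chondroitin, dermatan or keratan sulfate chains. Several also hold growth factors such as TGF-β in the matrix or act on Toll-like and growth factor receptors. In fat they come chiefly from stromal cells and developing preadipocytes, and decorin and lumican are used as genes of the fibroblast-like cells of the depot.

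The study comprises 43 RNA-seq libraries. They fall into 15 groups across 6 count tables, with 3 libraries a group except in the last pair, which had 2. In the cultures, brown preadipocytes were altered first and then differentiated into mature brown adipocytes. A first table held cultures overexpressing Runx1, cultures overexpressing Runx2, and their controls, labelled OEV with a WT genotype. A second held cultures knocked out for Runx1, for Runx2 or for both (double knockout), with a knockout control. Inguinal white fat (iWAT) came from Adipoq-cre Runx1 knockouts beside WT animals with floxed Runx1, and from Adipoq-cre Runx2 knockouts beside WT animals with floxed Runx2. Adipoq-cre is active in adipocytes, so the other cells of those fat pads keep the gene. A further iWAT table, labelled HFD, held Runx1 knockout and WT samples, and its labels name no cre. The last table held cultures with a Runx2 lacking its IDR and cultures with full-length Runx2. The labels give no age or sex, do not say how the culture knockouts were made or whether they are single clones, and do not say whether libraries of a group came from separate cultures or animals, so the p-values here reflect no more than how libraries of a group differ.

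Levels are CPM, each gene's share of a library's counts on the usual scale, adjusted by edgeR's TMM factors, and library totals ran from 28.1 to 52.2 M counts. Each difference is a log2 fold change with its standard error (SE), tested with edgeR's quasi-likelihood test across all genes of a table, and a gene was called at a Benjamini-Hochberg adjusted p < 0.05. In bulk RNA, fewer cells of a type and less RNA per cell cannot be told apart. The targeted mRNAs were read first. Runx1 mRNA stood at 66.9, 68.8 and 85.8 CPM in Runx1-overexpressing cultures, at 28.8, 29.4 and 32.6 CPM in Runx2-overexpressing cultures and at 5.73, 4.26 and 6.7 CPM in OEV cultures. Runx2 mRNA stood at 17.1, 15.3 and 17.9 CPM in Runx1-overexpressing cultures, at 281, 332 and 313 CPM in Runx2-overexpressing cultures and at 7.74, 9.29 and 9.28 CPM in OEV cultures. Each overexpression therefore came with more mRNA of the other factor too. In 3 overexpression-table libraries, 9 cardiac muscle marker genes summed to far more than in the other 6: 1648 CPM in replicate 3 of the Runx1-overexpressing cultures, and 113 and 436 CPM in replicates 1 and 2 of the OEV cultures, against 2.57 to 5.49 CPM elsewhere. Results that change a call, a direction or a fold by over 1.5 times without them are given both ways. Without all 3, a single OEV library is left, so such a comparison assumes that this library varies like those of the other groups.

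The plainest change in the family was Fmod, which was close to undetected in OEV cultures and higher in both overexpression groups. Fibromodulin, its product, binds type I collagen and takes part in the maturation and crosslinking of fibrils. Fmod had 21.3, 20.7 and 20.6 CPM in Runx1-overexpressing cultures, 5.99, 8.35 and 5.41 CPM in Runx2-overexpressing cultures, and 0.0659, 0.201 and 0.150 CPM in OEV cultures. The 3 groups did not overlap, and the OEV values rest on 2, 6 and 6 counts, against 928, 817 and 772 counts in Runx1-overexpressing cultures. The log2 fold change against OEV was 7.19 (SE 0.30) for Runx1, or 146-fold higher, and 5.52 (SE 0.29) for Runx2, or 46.0-fold higher. Between the overexpression groups, Fmod was 3.17-fold lower with Runx2 than with Runx1 (log2 -1.67, SE 0.20, edgeR adjusted p = 9.15e-05). Fmod passed the count filter of that table only through the overexpression groups, so its differences from OEV are given as a description, with no p, although it was called in both.

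The bases before the annotated start of Fmod are shown because this gene had the highest fold change of the 9, and because RUNX proteins are known to bind the core letters TGTGGT and TGCGGT. The window is mouse chr1:134037004-134037253 of GRCm38.p6, + strand, from RefSeq, another build than the mm39 of the counts. The capitals mark the match, ACCGCA, which is TGCGGT read on the other strand and starts 38 bases before the annotated start.

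Fmod: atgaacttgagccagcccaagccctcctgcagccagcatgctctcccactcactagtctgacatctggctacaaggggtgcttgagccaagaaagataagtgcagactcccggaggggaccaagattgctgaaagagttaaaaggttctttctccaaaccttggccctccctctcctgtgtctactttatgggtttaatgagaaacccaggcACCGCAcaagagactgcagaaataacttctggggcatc

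Both letter strings were searched on both strands in promoter windows of 300 bases, 250 before and 50 after each start. A match was found in 22.4% of 32851 windows of all genes and in 2 of the 8 windows of 7 members, those of Fmod and Ogn. No window was matched for Dcn or Lum.

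Bgn, Omd and Aspn also rose in both overexpression groups, Ogn was called with Runx2 and not with Runx1, Prelp was called in opposite directions, and Dcn, Lum and Podn were called in neither. With Runx1, 5 of 9 members rose (Fmod, Bgn, Omd, Prelp and Aspn) and none fell, where 28.2% of all 14661 tested genes rose and 25.8% fell. With Runx2, 5 of 9 rose (Fmod, Bgn, Ogn, Omd and Aspn) and 1 fell (Prelp), where 31.3% of all tested genes rose and 29.6% fell. Fmod, which had to differ to pass the filter, is 1 of the 5 in each count. The median log2 fold change over the 9 members was 1.81 with Runx1, beside 0.06 over all tested genes, and 2.97 with Runx2, beside 0.03. Both comparisons use the same OEV libraries. The median with Runx1 is the value of Dcn itself, and it depends on replicate 3 of the Runx1 group. Without that library Dcn had a log2 fold change of -2.21 and Lum of -0.92 with Runx1. In the direct comparison of Runx2 with Runx1 overexpression, 4 members were higher (Bgn, Ogn, Omd and Aspn) and 2 lower (Fmod and Prelp) with Runx2, where 18.9% of all tested genes were higher and 21% lower.

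**Figure D1:**
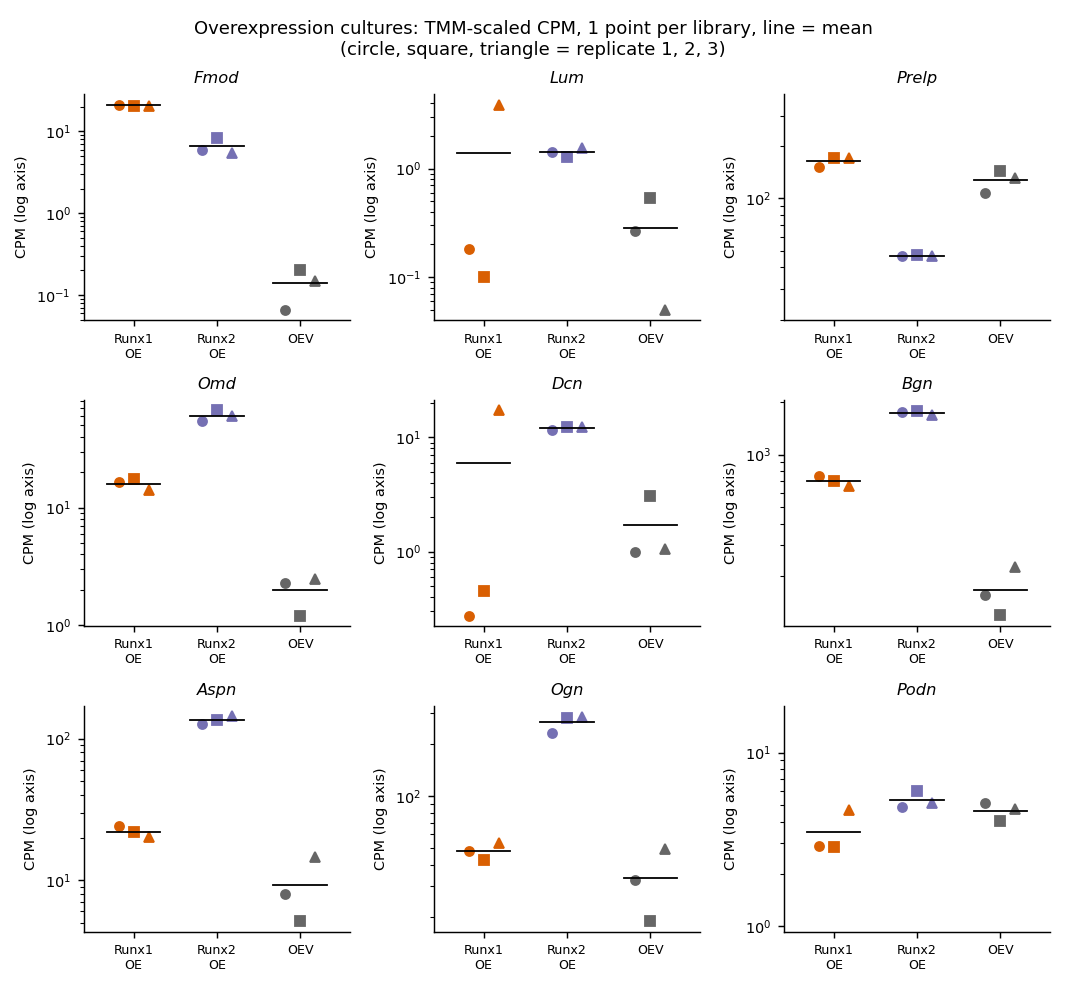
Levels of the 9 genes in the overexpression cultures, in TMM-scaled CPM on a log axis that differs between panels, with 1 point per library (circle, square and triangle for replicates 1, 2 and 3) and a line at the group mean. Fmod, Bgn and Omd lie above all OEV libraries in both overexpression groups, Prelp lies below them with Runx2 only, and in Dcn and Lum replicate 3 of the Runx1 group stands away from the other 2.

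Among the class I genes, Bgn encodes biglycan, which carries chondroitin or dermatan sulfate chains and, when set free from the matrix, acts on Toll-like receptors. Bgn had 756, 704 and 662 CPM in Runx1-overexpressing cultures, 1759, 1773 and 1692 CPM in Runx2-overexpressing cultures and 156, 119.6 and 224 CPM in OEV cultures. The groups did not overlap, with Runx2 highest and OEV lowest. The rise was 4.25-fold with Runx1 (log2 2.09, SE 0.18, edgeR adjusted p = 3.5e-06) and 10.5-fold with Runx2 (log2 3.39, SE 0.19, edgeR adjusted p = 6.14e-08), and Runx2 exceeded Runx1 2.46-fold (log2 1.30, SE 0.18, edgeR adjusted p = 0.000231).

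Aspn encodes asporin, a class I protein with a run of aspartate residues that binds collagen and restrains TGF-β in cartilage. Aspn had 24.1, 21.7 and 20.1 CPM in Runx1-overexpressing cultures, 127, 135 and 144 CPM in Runx2-overexpressing cultures and 8.01, 5.1 and 14.5 CPM in OEV cultures. All 9 libraries sorted by group, with the larger step at Runx2. The rise was 2.37-fold with Runx1 (log2 1.24, SE 0.29, edgeR adjusted p = 0.0049) and 14.6-fold with Runx2 (log2 3.87, SE 0.31, edgeR adjusted p = 2.86e-06), a 6.18-fold difference between them (log2 2.63, SE 0.29, edgeR adjusted p = 0.000111). Against the 1 OEV library left without the 3 cardiac libraries, Aspn had a log2 fold change of 0.67 (SE 0.14) with Runx1 and 3.23 (SE 0.15) with Runx2.

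Dcn encodes decorin, a class I protein that coats type I collagen fibrils and binds TGF-β. Dcn had 0.275, 0.456 and 17.2 CPM in Runx1-overexpressing cultures, 11.6, 12.2 and 12.3 CPM in Runx2-overexpressing cultures and 0.988, 3.09 and 1.05 CPM in OEV cultures. The Runx2 libraries lay close together above the OEV libraries, while in the Runx1 group the replicate with cardiac transcripts was high and the other 2 lay below every OEV library. With all libraries Dcn was not called with Runx1 (log2 1.81, SE 1.47, 95% confidence interval -1.69 to 5.32, edgeR adjusted p = 0.338) or with Runx2 (log2 2.83, SE 1.49, edgeR adjusted p = 0.145). Without replicate 3 of the Runx1 group, Dcn was lower with Runx1 (log2 -2.21, SE 0.50, edgeR adjusted p = 0.00219) and higher with Runx2 (log2 2.84, SE 0.35, edgeR adjusted p = 1.07e-05). Over all alternatives the adjusted p for Dcn ran from 0.00219 to 0.825 with Runx1 and from 4.92e-07 to 0.293 with Runx2. Without all 3 libraries that held cardiac transcripts, against the 1 OEV library left, the values were -1.53 (SE 0.36) and 3.52 (SE 0.28), and the difference between Runx2 and Runx1 was 5.04 (SE 0.24).

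Of the class II genes beside Fmod, Omd encodes osteomodulin, a keratan sulfate proteoglycan of bone and tooth matrix. Omd had 16.5, 17.4 and 14.2 CPM in Runx1-overexpressing cultures, 54.2, 67.2 and 59.7 CPM in Runx2-overexpressing cultures and 2.31, 1.21 and 2.45 CPM in OEV cultures. As with Bgn and Aspn, Runx2 was highest and OEV lowest, with no overlap. It rose 7.98-fold with Runx1 (log2 3.00, SE 0.21, edgeR adjusted p = 6.75e-07) and 30.0-fold with Runx2 (log2 4.91, SE 0.22, edgeR adjusted p = 1.07e-08), and was 3.76-fold higher with Runx2 than with Runx1 (log2 1.91, SE 0.19, edgeR adjusted p = 2.07e-05).

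Prelp went another way. Its product, prolargin, is a class II protein whose basic end binds heparan sulfate, linking collagen to basement membrane perlecan. Prelp had 152, 171 and 171 CPM in Runx1-overexpressing cultures, 46.4, 47.1 and 46.3 CPM in Runx2-overexpressing cultures and 107, 144 and 131 CPM in OEV cultures. The Runx2 libraries stood below all others and the Runx1 libraries just above the OEV range. Prelp rose 1.29-fold with Runx1 (log2 0.37, SE 0.11, edgeR adjusted p = 0.0136), and against the 1 OEV library left without the 3 cardiac libraries the value was 0.30 (SE 0.12, edgeR adjusted p = 0.0581). It fell 2.74-fold with Runx2 (log2 -1.45, SE 0.11, edgeR adjusted p = 5.51e-07), and Runx2 lay 3.53-fold below Runx1 (log2 -1.82, SE 0.11, edgeR adjusted p = 8.85e-07). Of the exon bases of Prelp, 9.68% overlap Gm15851 on the opposite strand, and reads there cannot be assigned without strand, which is not given in the sources used here.

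Lum encodes lumican, a class II keratan sulfate protein best known from the ordered collagen of the cornea. Lum had 0.184, 0.101 and 3.9 CPM in Runx1-overexpressing cultures, 1.42, 1.29 and 1.55 CPM in Runx2-overexpressing cultures and 0.264, 0.537 and 0.05 CPM in OEV cultures. As with Dcn, the Runx2 libraries agreed closely above OEV and 1 Runx1 library stood apart. Lum was not called with Runx1 (log2 2.31, SE 1.21, edgeR adjusted p = 0.133) or with Runx2 (log2 2.35, SE 1.21, edgeR adjusted p = 0.118). Lum passed the count filter only through the overexpression groups, so the values that follow are a description, with no p. Without replicate 3 of the Runx1 group, Lum had a log2 fold change of 2.37 (SE 0.62) with Runx2 and -0.92 (SE 0.81) with Runx1. Against the 1 OEV library left without the 3 cardiac libraries, which had 0.05 CPM, the values were 4.75 (SE 0.85) with Runx2 and 1.47 (SE 1.04) with Runx1. The difference between Runx2 and Runx1 was then 3.28 (SE 0.52).

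Ogn encodes osteoglycin, or mimecan, a class III member first purified from bone that takes part in collagen fibril assembly. Ogn had 48.2, 42.8 and 53.2 CPM in Runx1-overexpressing cultures, 229, 281 and 286 CPM in Runx2-overexpressing cultures and 32.7, 18.9 and 49.5 CPM in OEV cultures. The Runx2 libraries stood clear of the rest, and the Runx1 and OEV libraries overlapped. Ogn rose 7.85-fold with Runx2 (log2 2.97, SE 0.29, edgeR adjusted p = 1.57e-05) and was not called with Runx1 (log2 0.51, SE 0.28, edgeR adjusted p = 0.152). Without the 3 cardiac libraries the value with Runx1 was -0.12 (SE 0.15), also not called. The difference between Runx2 and Runx1 was 5.52-fold (log2 2.46, SE 0.29, edgeR adjusted p = 0.000176).

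Podn encodes podocan, the class V member, which was described in kidney podocytes and in smooth muscle. Podn had 2.89, 2.86 and 4.65 CPM in Runx1-overexpressing cultures, 4.82, 6.01 and 5.1 CPM in Runx2-overexpressing cultures and 5.11, 4.03 and 4.73 CPM in OEV cultures. The groups overlapped, and Podn was not called with Runx1 (log2 -0.42, SE 0.24, edgeR adjusted p = 0.16) or with Runx2 (log2 0.20, SE 0.23, edgeR adjusted p = 0.478). Without replicate 3 of the Runx1 group it was lower with Runx1 (log2 -0.68, SE 0.21, edgeR adjusted p = 0.015). Without the 3 cardiac libraries Podn was called lower with Runx1 against the 1 OEV library left (log2 -0.71, SE 0.25, edgeR adjusted p = 0.0337) and higher with Runx2 than with Runx1 (log2 0.88, SE 0.19, edgeR adjusted p = 0.0024).

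The order of the members by level changed between the groups. In Runx1-overexpressing cultures Bgn led at 116 ± 7.75 CPM per kilobase of exon (SD, n = 3), followed by Prelp at 45.5 ± 3.10 and Ogn at 18.7 ± 2.02. In Runx2-overexpressing cultures the order was Bgn at 285 ± 7.13, Ogn at 103 ± 12.2, Aspn at 57.6 ± 3.57, Omd at 26.8 ± 2.89 and Prelp at 12.9 ± 0.130 CPM per kb. The OEV cultures had most Prelp (35.3 ± 5.19 CPM per kb) and Bgn (27.3 ± 8.73), with overlapping spreads (mean ± SD), then Ogn (13.1 ± 5.97) and Aspn (3.90 ± 2.03), with Podn, Omd, Dcn, Lum and Fmod at 1.08 or less. Fmod was the sixth of the 9 in Runx1-overexpressing cultures, at 6.31 ± 0.112 CPM per kb, and last in OEV cultures, at 0.0421 ± 0.0207.

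Aspn, Omd and Ogn lie side by side on chromosome 13, with the related gene Ecm2 before them. All 4 were higher with Runx2. The genes listed before and after them by start were not: Cenpp had a log2 fold change of -0.45 (SE 0.13) and Nol8 of -0.07 (SE 0.12). Cenpp shares 7 exon bases with Aspn on the opposite strand, so it reaches into the run and does not mark an end of it. Further out, Fgd3 had 3.84 (SE 0.29) with Runx1 and 3.68 (SE 0.29) with Runx2. Ecm2, which encodes a matrix protein with leucine-rich repeats, had 2.02, 2.28 and 3.79 CPM in Runx1-overexpressing cultures, 6.24, 4.92 and 5.04 CPM in Runx2-overexpressing cultures and 0.264, 0.0336 and 0.250 CPM in OEV cultures. Both overexpression groups lay above OEV, with log2 fold changes of 3.83 (SE 0.50) for Runx1 and 4.83 (SE 0.51) for Runx2. With 8, 1 and 10 counts in OEV libraries, Ecm2 passed the filter through the overexpression groups, and these values are a description. Prelp and Fmod are neighbours on chromosome 1, yet Prelp was lower and Fmod higher with Runx2, and Btg2 beyond Fmod had -1.03 (SE 0.12) with Runx1 and 2.69 (SE 0.12) with Runx2. Over 29 tested genes among the 40 nearest neighbours of the members that are not of the family, 10 rose and 8 fell with Runx2 and 8 rose and 8 fell with Runx1. The order of genes is that of RefSeq protein-coding genes, sorted by start.

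**Figure D2:**
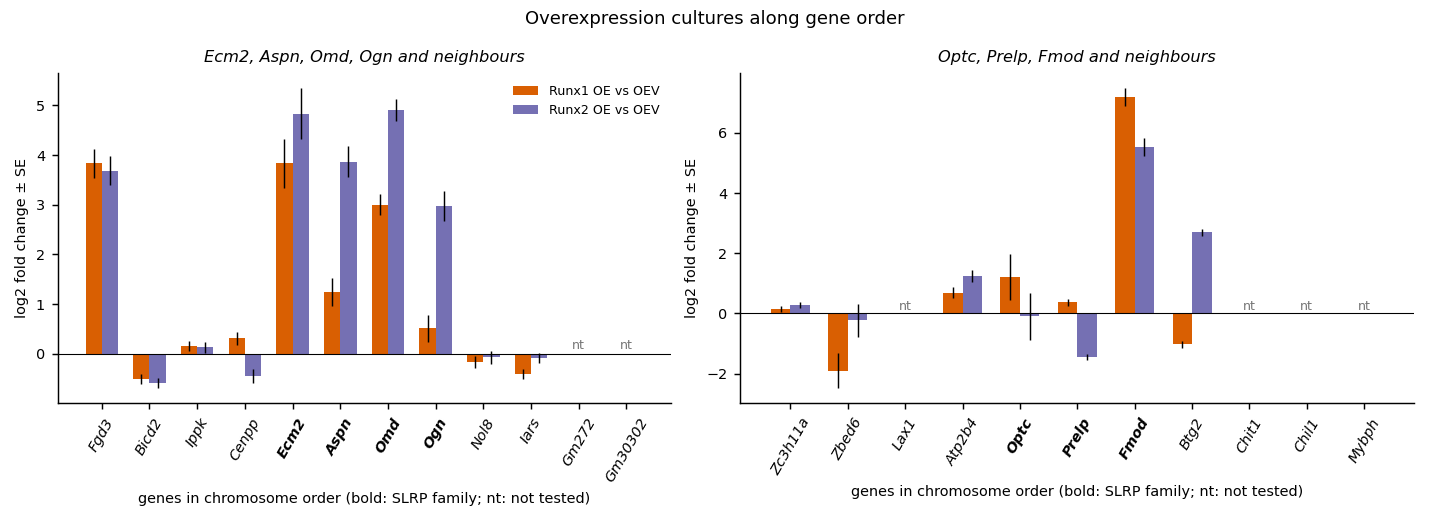
Log2 fold changes with SE against OEV for the runs of family genes on chromosome 13 (left) and chromosome 1 (right) and their neighbours, in gene order and not to distance, with Runx1 overexpression as the first and Runx2 overexpression as the other bar. With Runx2, Ecm2, Aspn, Omd and Ogn stand above Cenpp and Nol8, listed before and after them by start, and Prelp and Fmod point in opposite directions. Fgd3 further out is also high, and Cenpp overlaps Aspn on the opposite strand.

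The windows before the starts of the 3 members on chromosome 13 are printed so that they can be compared, since their genes rose together with Runx2. They come from RefSeq on GRCm38.p6, + strand, at chr13:49544193-49544442 for Aspn, chr13:49582212-49582461 for Omd and chr13:49607765-49608014 for Ogn. Capitals mark the single match in Ogn, ACCACA, which is TGTGGT on the other strand and starts 65 bases before the annotated start. The windows of Aspn and Omd hold neither letter string.

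Aspn: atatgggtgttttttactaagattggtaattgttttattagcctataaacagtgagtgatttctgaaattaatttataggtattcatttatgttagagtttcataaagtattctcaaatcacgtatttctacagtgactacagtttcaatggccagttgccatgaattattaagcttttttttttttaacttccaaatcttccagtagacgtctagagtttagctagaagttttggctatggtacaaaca
Omd: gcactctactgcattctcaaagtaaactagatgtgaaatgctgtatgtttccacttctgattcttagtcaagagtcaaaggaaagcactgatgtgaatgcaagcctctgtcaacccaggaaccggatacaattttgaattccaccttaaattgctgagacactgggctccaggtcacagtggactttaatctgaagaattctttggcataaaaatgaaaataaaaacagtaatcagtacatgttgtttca
Ogn: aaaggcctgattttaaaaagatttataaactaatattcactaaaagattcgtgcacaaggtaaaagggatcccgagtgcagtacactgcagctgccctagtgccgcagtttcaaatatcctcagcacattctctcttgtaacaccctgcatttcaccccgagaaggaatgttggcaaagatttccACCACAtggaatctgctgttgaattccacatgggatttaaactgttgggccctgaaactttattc

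The G and C content of the 3 windows was 30% in Aspn, 38.4% in Omd and 42% in Ogn, against 51.2% in Fmod.

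Other genes of the same pathway were counted in the same cultures, to be read against the 28.2% of all genes that rose and 25.8% that fell with Runx1, and the 31.3% and 29.6% with Runx2. Of 7 tested relatives outside the 9 members, 2 rose and 1 fell with Runx1, and 2 rose and 2 fell with Runx2, close to the share of all genes. Ecm2, which passed the filter through the overexpression groups, is 1 of the 2 that rose in each comparison. Both counts are therefore a description. Podnl1, a close relative of Podn, had 66.1, 64.9 and 44.6 CPM in Runx1-overexpressing cultures, 26.9, 24.1 and 24.9 CPM in Runx2-overexpressing cultures and 1.58, 0.638 and 1.83 CPM in OEV cultures, a log2 fold change of 5.41 (SE 0.29, edgeR adjusted p = 1.01e-07) with Runx1. Tsku, which encodes the secreted protein tsukushi, averaged 51.5 ± 3.13 CPM with Runx1, 22.2 ± 1.55 CPM with Runx2 and 183 ± 14.5 CPM in OEV cultures (SD, n = 3 each) and fell in both (log2 -1.83, SE 0.10, and -3.04, SE 0.10). Podnl1 thus stood high in the same cultures in which Podn showed no call.

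Of 14 collagens that form or join fibrils, 11 rose and 2 fell with Runx1 (median log2 1.40) and 13 rose and 1 fell with Runx2 (median 2.10). Col1a1, a chain of type I collagen, averaged 4733 ± 248 CPM with Runx2 against 479 ± 219.7 CPM in OEV cultures, a log2 fold change of 3.30 (SE 0.27, edgeR adjusted p = 2.22e-06). Col3a1, of type III collagen, had 3.58 (SE 0.32), and Col6a2, of the beaded type VI filaments, had 2.65 (SE 0.17) with Runx1. Col11a1 fell with Runx1 (log2 -2.14, SE 0.29) and was higher with Runx2 than with Runx1 (log2 2.88, SE 0.30). Of 14 tested enzymes that trim collagen propeptides or crosslink collagen, 9 rose and 3 fell with Runx1 and 11 rose and 2 fell with Runx2. Loxl3, a lysyl oxidase, had log2 fold changes of 4.08 (SE 0.27) with Runx1 and 3.80 (SE 0.27) with Runx2, and Plod1, a lysyl hydroxylase, fell in both (-1.56, SE 0.10, and -1.47, SE 0.10).

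The enzymes that build the sugar chains did not move as a block. Of 21 tested enzymes for chondroitin and dermatan sulfate, 10 rose and 5 fell with Runx1 and 8 rose and 7 fell with Runx2. These counts moved over the alternatives. Their median log2 fold change ran from 0.18 to 0.37 with Runx1 and from 0.06 to 0.37 with Runx2. Pxylp1, which removes a phosphate from the xylose of the linker, rose (log2 1.85, SE 0.11, and 2.35, SE 0.11), whereas Chst15, a chondroitin sulfotransferase, fell (-2.37, SE 0.12, and -3.16, SE 0.12). Chst15 averaged 19 ± 1.79 CPM with Runx1, 10.9 ± 1.06 CPM with Runx2 and 97.9 ± 8.18 CPM in OEV cultures. Of 8 tested enzymes for keratan sulfate, 4 rose and 2 fell with Runx1 and 6 rose and 2 fell with Runx2. Chst2, an N-acetylglucosamine sulfotransferase, had the highest rise among them in both comparisons, at log2 4.04 (SE 0.27) and 4.99 (SE 0.27).

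Proteases that can cut these proteoglycans, ligands they hold and receptors they act on were counted too. Of 8 tested proteases, 6 rose and 1 fell with Runx1 and all 8 rose with Runx2, with a median log2 fold change of 4.52 with Runx2. Gzmb, at 0 CPM in OEV cultures, and Mmp13, at 0.172 CPM on average, passed the filter only through the overexpression groups. Both are part of these counts and of the median, which are therefore a description. Mmp2, a gelatinase, averaged 289 ± 26.8 CPM with Runx2 against 4.59 ± 0.565 CPM in OEV cultures (log2 5.97, SE 0.15, edgeR adjusted p = 2.75e-10). Of 19 tested ligands and receptors, 10 rose and 3 fell with Runx1 and 13 rose and 2 fell with Runx2. Their median log2 fold change with Runx1 was 1.31, and it ran from 0.55 to 1.84 over the alternatives, where the counts moved too. The tested genes include Tlr2, Bmp2 and Bmp4, at 0.0390, 0.0447 and 0.111 CPM on average in OEV cultures, which passed the filter in the same way. Tgfbr2, the type II TGF-β receptor, fell in both (log2 -1.66, SE 0.11, and -0.96, SE 0.11). Of 15 tested large and basement membrane proteoglycans, 8 rose and 2 fell with Runx1 and 9 rose and 3 fell with Runx2. Their median log2 fold change with Runx1 was 1.18, and it ran from 0.35 to 1.28 over the alternatives. Srgn among them, at 0.244 CPM on average in OEV cultures, also passed the filter only through the overexpression groups. Sdc3 rose in both (log2 3.24, SE 0.20, and 2.21, SE 0.19) and Sdc4 fell in both (-1.52, SE 0.10, and -1.12, SE 0.09). Both encode syndecans, heparan sulfate proteoglycans of the cell surface.

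Marker genes of several cell types differed between the same groups, and their part in the results on the 9 genes was not tested. The 12 stromal progenitor markers summed to 496 to 575 CPM with Runx1, 986 to 1002 CPM with Runx2 and 213 to 333 CPM in OEV cultures, with Cd55, Dpp4 and Thy1 at 0 in some libraries of each group. The 7 smooth muscle and pericyte markers summed to 1127 to 1516 CPM with Runx1, 1227 to 1531 CPM with Runx2 and 203 to 265 CPM in OEV cultures. The 11 osteoblast and chondrocyte markers summed to 252 to 313 CPM, 141 to 156 CPM and 84.4 to 96.1 CPM in the same order, with Acan at 0 in libraries of every group. The 8 brown adipocyte markers summed to 103 to 155 CPM with Runx1, 51.0 to 58.5 CPM with Runx2 and 630.0 to 846 CPM in OEV cultures, and the 10 adipocyte markers to 7993 to 9615 CPM, 4726 to 5543 CPM and 9013 to 9823 CPM. Stromal sums were thus highest, and both adipocyte sums lowest, in Runx2-overexpressing cultures.

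In the knockout cultures a smaller set of members rose, and none fell. Ogn and Aspn rose in cultures labelled Runx1 knockout, Bgn, Ogn and Aspn rose in the double knockout, and none was called in cultures labelled Runx2 knockout. Neither targeted mRNA was lower in these cultures: Runx1 had 4.75, 4.81 and 6.74 CPM in Runx1 knockout cultures against 2.8, 8 and 4.91 CPM in control cultures, and Runx2 had 8.67, 6.83 and 7.32 CPM in Runx2 knockout cultures against 6.82, 7.13 and 9.18 CPM in control cultures. The log2 fold changes were 0.05 (SE 0.34) and -0.02 (SE 0.18), so the mRNA level does not bear out these labels, and the groups are named below as they are labelled. The 3 comparisons share the same control libraries. Of the 9 members 8 were tested, and Lum was listed at 0 counts in 11 of 12 libraries, with 2 counts in 1 double knockout library.

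Ogn had 25.0, 28.9 and 29.2 CPM in Runx1 knockout cultures, 15.4, 20.2 and 15.9 CPM in Runx2 knockout cultures, 17.4, 22.7 and 22.5 CPM in double knockout cultures and 15.4, 9.42 and 12.8 CPM in control cultures. The Runx1 and double knockout libraries lay above every control library. Ogn was 2.21-fold higher in cultures labelled Runx1 knockout (log2 1.14, SE 0.19, edgeR adjusted p = 0.0235) and 1.67-fold higher in the double knockout (log2 0.74, SE 0.19, edgeR adjusted p = 0.0206). In cultures labelled Runx2 knockout its log2 fold change was 0.46 (SE 0.19, 95% confidence interval 0.05 to 0.86, edgeR adjusted p = 0.67).

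Aspn had 10.4, 9.49 and 12.0 CPM in Runx1 knockout cultures, 6.49, 7.65 and 5.82 CPM in Runx2 knockout cultures, 9.87, 10.6 and 10.8 CPM in double knockout cultures and 5.6, 3.19 and 5.69 CPM in control cultures. The pattern over groups was that of Ogn, with Runx2 knockout libraries nearest the control. Aspn was 2.20-fold higher in cultures labelled Runx1 knockout (log2 1.14, SE 0.21, edgeR adjusted p = 0.0395) and 2.16-fold higher in the double knockout (log2 1.11, SE 0.21, edgeR adjusted p = 0.0044).

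Bgn had 162, 162 and 165 CPM in Runx1 knockout cultures, 128, 137 and 123 CPM in Runx2 knockout cultures, 109, 244 and 306 CPM in double knockout cultures and 80.7, 97.7 and 113 CPM in control cultures. The Runx1 and Runx2 knockout libraries lay above all controls, and in the double knockout replicate 1 lay within the control range. Bgn was called in the double knockout (log2 1.17, SE 0.28, edgeR adjusted p = 0.0152), with a log2 fold change of 1.51 (SE 0.12) without that library. It was not called in cultures labelled Runx1 knockout (log2 0.75, SE 0.28, edgeR adjusted p = 0.531) or Runx2 knockout (log2 0.41, SE 0.27, edgeR adjusted p = 0.979). Double knockout replicate 1 also stood apart in its 10 adipocyte markers, which summed to 17017 CPM against 9327 and 8932 CPM in the other 2 and 8777 to 9203 CPM in control cultures.

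None of the other members was called in these cultures. Prelp ranged from 78.7 to 97.7 CPM in cultures labelled Runx1 knockout, from 78.8 to 104 CPM in cultures labelled Runx2 knockout, from 61.4 to 177 CPM in the double knockout and from 29.6 to 77.7 CPM in control cultures, with no overlap with control in either single knockout and an overlap in the double knockout, and was not called (double knockout log2 1.06, SE 0.37, edgeR adjusted p = 0.0745). Omd, Fmod and Dcn stayed under 1 CPM in every library, at 0.0602 to 0.801 CPM, 0.182 to 0.593 CPM and 0.241 to 0.960 CPM. Omd had a log2 fold change of 1.63 (SE 0.56) in the double knockout. It averaged 0.212 CPM in control cultures and passed the count filter only through the knockout groups, so this value is a description, with no p. Podn ranged from 2.62 to 4.46 CPM over all 12 libraries, with log2 fold changes of 0.14, 0.11 and 0.07 (SE 0.23 each).

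**Figure D3:**
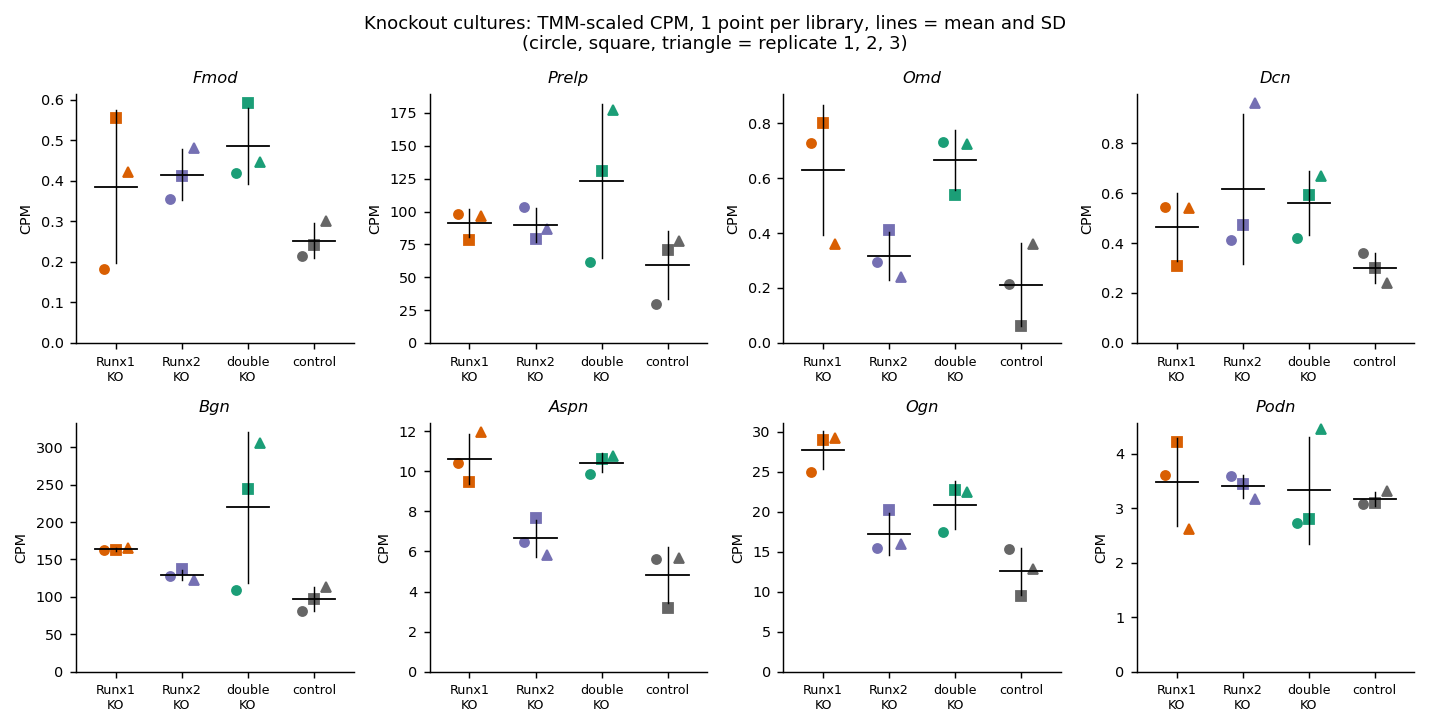
Levels of the 8 members with counts in the knockout cultures, in TMM-scaled CPM from 0, with 1 point per library (circle, square and triangle for replicates 1, 2 and 3) and lines for the mean and SD of 3 libraries. Ogn and Aspn lie above the control range in Runx1 and double knockout cultures, and replicate 1 of the double knockout lies below its 2 fellows in Bgn and Prelp.

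Counted over the family, 2 of 8 tested members rose in cultures labelled Runx1 knockout, and none fell, where 0.406% of all 13551 tested genes rose and 0.0295% fell. None of 8 was called by edgeR in cultures labelled Runx2 knockout, where 0.184% of genes were called, with 3 members at an unadjusted p under 0.05 and 0 called by DESeq2. In the double knockout 3 of 8 rose and none fell, where 8.27% of genes rose and 7.01% fell, and DESeq2 called 5, adding Omd and Prelp. Omd passed the filter only through the knockout groups, so its place in that count is a description. The median log2 fold change of the tested members was 0.69, 0.52 and 1.00 in that order, beside -0.01, -0.01 and 0.02 over all genes. In cultures labelled Runx1 knockout the calls were not kept with the replicate number as a block, where 0 members were called, or without replicate 2 or 3 of the control or any 1 Runx1 knockout library. Fitting the double knockout and control libraries alone, with or without that block, also left 0 called, while the block within the fit of all 4 groups left 3. Whether the double knockout effect differed from the 2 single effects added together was tested as well, and it was called for 0 of 8 members by edgeR and by DESeq2, with 1 at an unadjusted p under 0.05 (0.0443% of all genes called). That 1 was Ogn (log2 -0.86, SE 0.26, edgeR adjusted p = 0.304).

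Other matrix genes in the knockout cultures were called mostly in the double knockout. There, 6 of 13 tested collagens rose and none fell, among them Col3a1 at 337 ± 69.6 CPM against 67.3 ± 25.3 CPM in control cultures (log2 2.32, SE 0.24, edgeR adjusted p = 9.94e-05). Over the alternatives that count ran from 0 to 11. Of 14 propeptide and crosslink enzymes 8 rose (1 to 11 over the alternatives), with Pcolce, which speeds procollagen cleavage, at 230.4 ± 1.60 CPM against 94.6 ± 8.49 CPM. Mmp2 rose in cultures labelled Runx1 knockout and in the double knockout (log2 1.71 in both, SE 0.22 each). Chst1, a keratan sulfate sulfotransferase, fell in cultures labelled Runx1 knockout, at 6.51 ± 0.740 CPM against 13.1 ± 1.02 CPM in control cultures (edgeR adjusted p = 0.0395), and in the double knockout (log2 -1.35, SE 0.19, edgeR adjusted p = 0.000663).

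Stromal progenitor markers in the knockout cultures summed to 254 to 278 CPM in cultures labelled Runx1 knockout, 203 to 223 CPM in cultures labelled Runx2 knockout, 179 to 378 CPM in the double knockout and 183 to 237 CPM in control cultures. Their part in the calls was not tested.

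In inguinal fat the family was expressed in another order, and the leading member differed between the tables. Per kilobase, Dcn led in WT and knockout fat of the Runx1 table, at 94.6 ± 14.4 CPM per kb in Runx1 knockout and 139 ± 67.2 in Runx1-floxed controls, followed by Prelp, Bgn and Lum. Omd was lowest of the 9, at 0.710 ± 0.471 and 0.797 ± 0.285. In the Runx2 table Dcn led in floxed fat, at 65.0 ± 8.18 CPM per kb beside Prelp at 55.0 ± 27.3. Prelp led in Runx2 knockout fat, at 94.6 ± 16.6 beside Dcn at 73.2 ± 8.94. In the HFD table Prelp led in both groups, at 623 ± 203 in Runx1 knockout and 619 ± 169 in WT fat. Dcn was second there, at 98.0 ± 18.0 and 105 ± 22.8. Lum and Dcn, at or near 0 in the knockout cultures, were thus plainly detected in the tissue, which holds stromal, vascular and immune cells beside adipocytes.

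In Runx1 knockout iWAT, Bgn was lower and no other member was called. Bgn had 195, 198 and 210.3 CPM in Runx1 knockout fat against 320.1, 251 and 288 CPM in Runx1-floxed fat. The groups did not overlap, and Bgn fell 1.43-fold (log2 -0.51, SE 0.14, edgeR adjusted p = 0.04995). That call sits at the threshold: it was lost without a count filter, with the replicate block, with B cell or muscle scores as covariates and in 5 of 6 fits that left out 1 library, and its adjusted p ran from 0.0033 to 0.206 over all alternatives. With 1 of 9 members lower, where 3.03% of all 15896 tested genes were lower and 4.45% higher, the family as a whole gave few calls. All 9 log2 fold changes were below 0, with a median of -0.51 beside 0.00 over all genes.

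Lum had 32.1, 32.6 and 44.3 CPM in Runx1 knockout fat against 142, 54.9 and 51.4 CPM in Runx1-floxed fat. The groups did not overlap with or without replicate 1 of the floxed group, but most of the size of the difference came from 1 floxed library, and Lum was not called (log2 -1.19, SE 0.46, edgeR adjusted p = 0.192). Dcn had 589.5, 456 and 612 CPM in knockout fat against 1262, 613 and 556 CPM in floxed fat, with the same floxed library high. Without that library (replicate 1), Bgn had a log2 fold change of -0.43 (SE 0.14, edgeR adjusted p = 0.11), Dcn had a log2 fold change of -0.09 and Lum of -0.56 (SE 0.17, edgeR adjusted p = 0.0896). Aspn had 20.7, 14.9 and 14.7 CPM against 34.5, 16.6 and 26.8 CPM (log2 -0.63, SE 0.26), Ogn 39.2, 28.6 and 45.1 CPM against 71.3, 49.9 and 44.1 CPM (log2 -0.55, SE 0.21), and Fmod 19.1, 22.4 and 26.6 CPM against 26.8, 23.8 and 37.6 CPM (log2 -0.37, SE 0.20). In these 3 genes the groups overlapped. Prelp, Omd and Podn had log2 fold changes of -0.23 (SE 0.42), -0.17 (SE 0.55) and -0.08 (SE 0.13).

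Runx1 mRNA in this table stood at 20.7, 20.7 and 21.4 CPM in knockout fat against 25.2, 28.4 and 42.8 CPM in floxed fat (log2 -0.62, SE 0.19, edgeR adjusted p = 0.0779). Skeletal muscle markers differed widely between single libraries, at 257, 17394 and 8236 CPM in knockout fat and 28.8, 7580.4 and 88.7 CPM in floxed fat. Brown adipocyte markers summed to 285 to 436 CPM in knockout fat and 91.8 to 167 CPM in floxed fat, and stromal markers to 905 to 1034 CPM and 959 to 1156 CPM. The 8 endothelial markers summed to 732 to 1008 CPM in knockout fat and 1053 to 1412 CPM in floxed fat, with none at 0 and no overlap, the same direction as Bgn. The part of these markers in the result on Bgn was not tested. Among the related lists, Ccn2, a matrix growth factor regulator, fell (log2 -1.24, SE 0.20, edgeR adjusted p = 0.00957), as did Sdc4 (log2 -1.14, SE 0.16, edgeR adjusted p = 0.00596).

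For Runx2 in iWAT, no member was called, and 1 control library decided what the comparison showed. The library labelled Runx2-floxed replicate 3 stood in or near the knockout range in Runx2 mRNA and in adipocyte and B cell markers. Runx2 mRNA was 3.82, 6.74 and 2.4 CPM in knockout fat and 15.0, 10.5 and 4.19 CPM in floxed fat. Adipocyte markers summed to 43092 to 52281 CPM in knockout fat and to 15093, 18858 and 41852 CPM in floxed fat. B cell markers summed to 278 to 669 CPM in knockout fat and to 1994, 2140.1 and 316 CPM in floxed fat. In some other lists every floxed library, replicate 3 included, lay outside the knockout range. Brown adipocyte markers summed to 268 to 990 CPM in knockout fat and 61.7 to 179 CPM in floxed fat. T cell markers summed to 362 to 458 CPM and 502 to 1221 CPM, and macrophage markers to 1068 to 1262 CPM and 1416 to 1973 CPM. Endothelial and stromal markers overlapped between the groups. By edgeR 0 of 9 members were called, with 1 at an unadjusted p under 0.05 and 0 called by DESeq2. Over all 15574 genes edgeR called 0%, although 3206 had an unadjusted p under 0.05 and DESeq2 called 1039.

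Fmod had 21.4, 17.3 and 13.6 CPM in Runx2 knockout fat against 41.7, 35.9 and 16.4 CPM in Runx2-floxed fat. The floxed values split at replicate 3, and the log2 fold change was -0.84 (SE 0.35, edgeR adjusted p = 0.239) with it and -1.15 (SE 0.20, edgeR adjusted p = 0.0021) without it. Podn had 156, 109.9 and 135 CPM in knockout fat against 41.7, 49.5 and 149 CPM in floxed fat. The same library was again with the knockouts, and the log2 fold change was 0.74 (SE 0.47, edgeR adjusted p = 0.365) with it and 1.56 (SE 0.18, edgeR adjusted p = 0.00046) without it. Prelp had 377, 377 and 273 CPM in knockout fat against 89.2, 227 and 280.3 CPM in floxed fat, and its log2 fold change was 0.78 (SE 0.40) with that library and 1.12 (SE 0.36, edgeR adjusted p = 0.0356) without it. Lum had 13.8, 10.9 and 14.6 CPM against 22.3, 19.3 and 12.3 CPM, with -0.46 (SE 0.26) with it and -0.67 (SE 0.19, edgeR adjusted p = 0.0196) without it. Without that library 4 of 9 members were called, in a fit that called 6354 of all 15875 tested genes, so the members' share was close to that of all genes.

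Aspn had 19.2, 17.6 and 16.7 CPM in knockout fat against 9.75, 14.8 and 16.3 CPM in floxed fat, and was not called (log2 0.39, SE 0.23, edgeR adjusted p = 0.339). Dcn had 487, 392 and 403 CPM against 326, 395 and 418 CPM, and Bgn 213, 161 and 169.7 CPM against 213, 209 and 146 CPM. Both overlapped, with 95% confidence intervals on the log2 scale of -0.31 to 0.65 for Dcn and -0.58 to 0.45 for Bgn. Ogn and Omd overlapped too, at log2 -0.07 (SE 0.36) and 0.21 (SE 0.58). In a joint fit the Runx2 and Runx1 knockout effects in iWAT differed for 0 of 9 members by edgeR, with 1 at an unadjusted p under 0.05 (1.58% of all genes called). The tables and the factors cannot be told apart there.

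**Figure D4:**
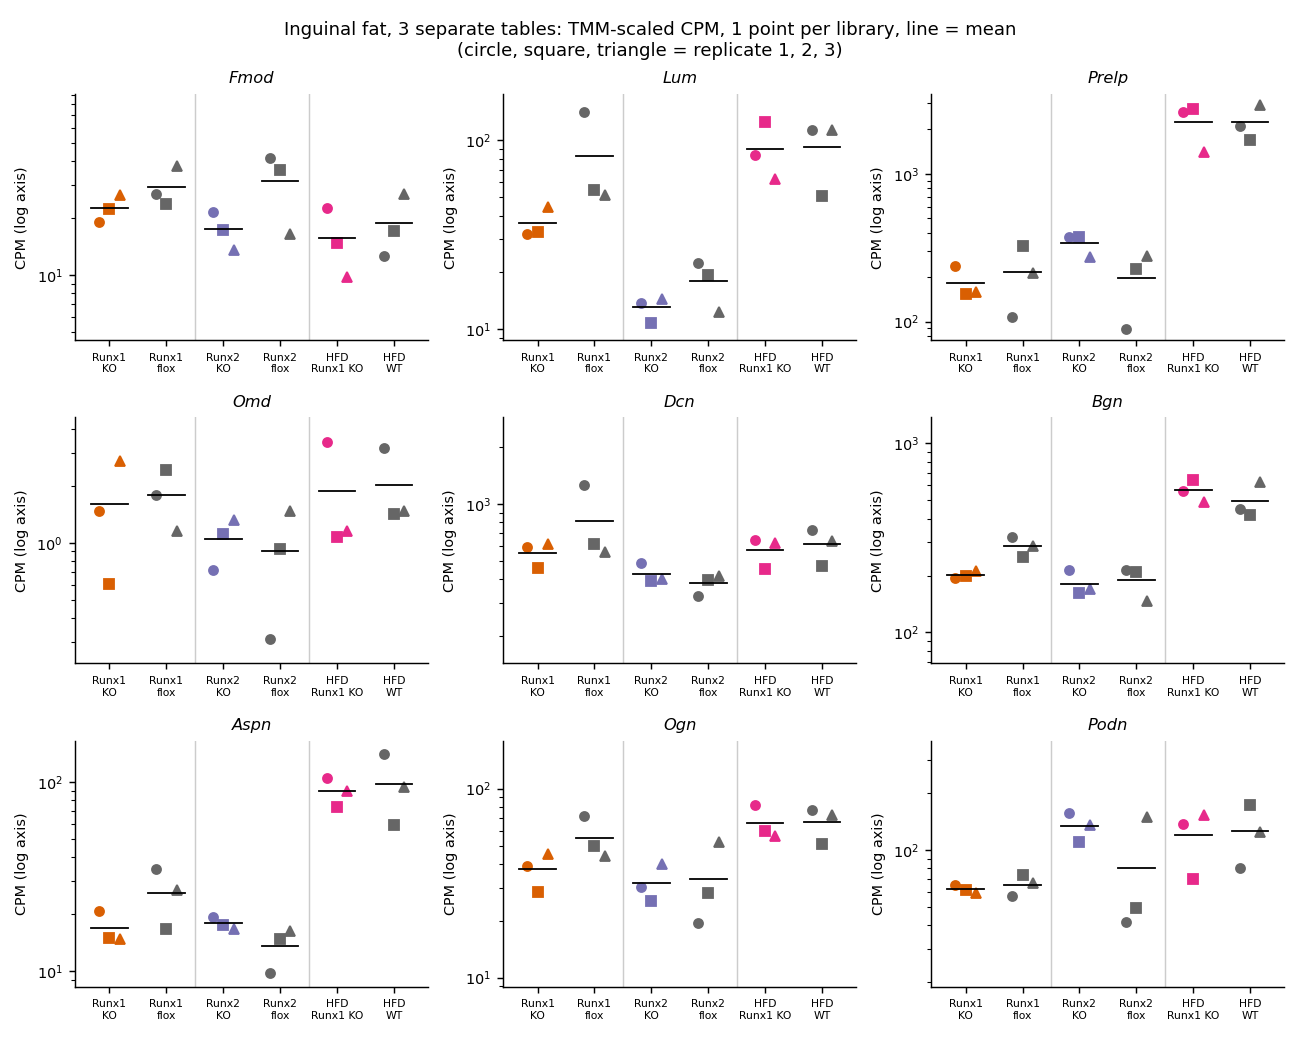
Levels of the 9 genes in inguinal fat, in TMM-scaled CPM on a log axis, with 1 point per library (circle, square and triangle for replicates 1, 2 and 3), a line at the mean, and grey rules between the 3 separate tables. Bgn lies lower in Runx1 knockout than in Runx1-floxed fat, replicate 3 of the Runx2-floxed group sits among the Runx2 knockouts in Fmod and Podn, and the HFD groups overlap in all 9 genes.

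In the HFD samples no member was called between Runx1 knockout and WT fat, and every member's groups overlapped. Bgn, lower in the other Runx1 knockout fat, had 563, 643 and 487 CPM in HFD Runx1 knockout fat against 452, 419 and 623 CPM in HFD WT fat (log2 0.18, SE 0.24, 95% confidence interval -0.35 to 0.71). Lum had 83.4, 125 and 62.7 CPM against 113, 50.6 and 113 CPM, and Dcn 647, 452 and 618 CPM against 731, 468 and 639 CPM. Both groups spanned about the same range. Log2 fold changes of the 9 ran from -0.26 in Fmod (95% confidence interval -1.02 to 0.50) to 0.18 in Bgn, with a lowest edgeR adjusted p of 0.97. By edgeR 0 of 9 were called, with 0 at an unadjusted p under 0.05 and 0 called by DESeq2, where 2.11% of all 15058 tested genes were called.

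The HFD table also had the highest Prelp of the series, at 2605, 2740.1 and 1408 CPM in knockout fat and 2107, 1701 and 2904 CPM in WT fat, although levels in separate tables were scaled apart. Runx1 mRNA was 13.0, 13.9 and 8.15 CPM in HFD knockout fat against 8.68, 16.7 and 17.9 CPM in HFD WT fat, so it does not check the labels. B cell markers summed to 5.61 to 8.67 CPM in knockout fat and 213 to 538 CPM in WT fat, with Ms4a1 and Fcer2a at 0 in 1 knockout library. The Runx1 knockout effect in HFD fat minus that in the other iWAT table was called for 0 of 9 members by edgeR, with 1 at an unadjusted p under 0.05 (4.4% of all genes called). Of the pathway lists, Plod2, a lysyl hydroxylase, rose (log2 1.16, SE 0.26, edgeR adjusted p = 0.0408) and Chst3, a chondroitin sulfotransferase, fell (log2 -3.66, SE 0.77, edgeR adjusted p = 0.0312). The authors' deposited table for this comparison lists 403 genes with none of the 9 among them.

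Removing the IDR of Runx2 gave no call among the members. Fmod had 0.492 and 0.361 CPM in cultures with Runx2 lacking the IDR against 0.295 and 0.411 CPM in cultures with full-length Runx2, and the groups overlapped. Ogn had 5.81 and 3.91 CPM without the IDR against 6.61 and 8.8 CPM with full-length Runx2 (log2 -0.66, SE 0.21, edgeR adjusted p = 0.06), and Bgn had 65.4 and 60.7 CPM against 69.7 and 79.3 CPM (log2 -0.24, SE 0.09, edgeR adjusted p = 0.148). Both were lower in each library without the IDR, while Prelp was higher, at 70.9 and 65.1 CPM against 63.2 and 49.9 CPM (log2 0.27, SE 0.10, edgeR adjusted p = 0.146). Aspn had 2.34 and 1.54 CPM against 2.03 and 2.17 CPM, and Podn had 4.98 and 3.91 CPM against 3.89 and 4.72 CPM.

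Of the 9 members 6 were tested there, and Dcn, Lum and Omd fell under the count filter, with at most 0.331 CPM in any library. By edgeR 0 of 6 were called, with 3 at an unadjusted p under 0.05 and 0 called by DESeq2, where 3.91% of all 13110 tested genes were called. Ogn was called with the replicate block (log2 -0.67, edgeR adjusted p = 0.016) and without a count filter (log2 -0.66, edgeR adjusted p = 0.02). Leaving out 1 library at a time, which leaves 1 in a group, moved both Ogn and Prelp. Ogn then ran from log2 -0.98 to -0.41 and Prelp from 0.11 to 0.45. Runx2 mRNA itself was 115 and 143 CPM without the IDR against 293 and 294 CPM with full-length Runx2 (log2 -1.19, SE 0.08), so the 2 groups differed in dose as well as in the protein. The authors' deposited table for this comparison lists 341 genes with none of the 9 among them.

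**Figure D5:**
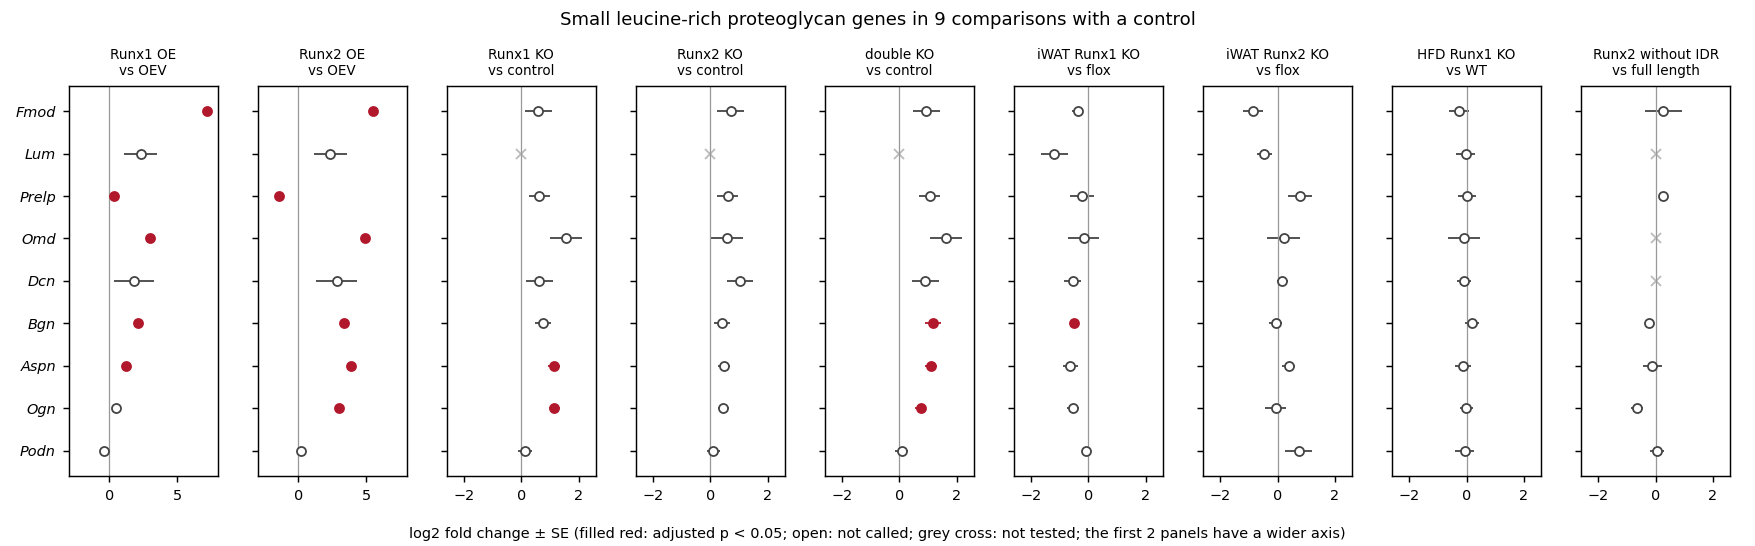
Log2 fold change with SE of each of the 9 genes in the 9 comparisons with a control, 1 panel per comparison, with filled red points for genes called at adjusted p < 0.05, open points for those not called and grey crosses for those not tested. The first 2 panels have a wider axis, and calls stand there and in the Runx1 and double knockout cultures, with Bgn alone in iWAT Runx1 knockouts.

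Genes whose fold changes over the 9 comparisons lay nearest to a member were sought for 6 members among 10922 genes with at least 1 CPM on average in every table, by the root mean square difference in log2 fold change, as a description. Dcn, Lum and Omd were not tested in all 9 comparisons and were left out. Nearest to Bgn were Col1a1 (0.13), Pcolce (0.14) and Col1a2 (0.17), where the median over all candidates was 1.49. Nearest to Ogn were Fbn1 (0.23), Egfr (0.37) and Fn1 (0.40), with a median of 1.22, and nearest to Aspn were Fbln2 (0.31), Ifih1 (0.34) and Col1a1 (0.34), with a median of 1.55. Fmod had no close match, with Ptn at 0.81, Acta2 at 0.87 and Antxr1 at 1.04 against a median of 3.11. Prelp was nearest to Arxes2 (0.34), Cidec (0.35) and Fabp4 (0.35), with a median of 0.82, and Podn to Nbas (0.11), Scyl2 (0.14) and Ipo9 (0.15), with a median of 0.48. Thus Bgn and Aspn shared Col1a1 as a near gene, while the genes nearest to Prelp include Cidec and Fabp4, which encode lipid-droplet and fatty-acid-binding proteins of adipocytes. Some comparisons share control libraries, so the 9 are not independent.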

How the data were processed

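The 6 gene count tables were deposited by the authors as raw featureCounts counts, per the file headers; fastp, STAR and the mm39 build are named, without versions, in the submitters' processing notes, and strand settings and filters are not given in the sources used here. RNA was extracted with a column kit and libraries were made with the VAHTS Universal V6 kit, per the labels' protocols. Totals were 28.1 to 52.2 M counts per library, and 71.1% to 81.9% of values between 1 and 19 counts were even. The authors' 2 deposited tables of log2 fold changes and p-values were used only to look up the members, and 10 per-sample columns in them were not used.

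Libraries were grouped by the labels. Each table was filtered with filterByExpr, scaled by TMM and fitted with edgeR 4.0.16 (robust quasi-likelihood; limma 3.58.1; R 4.3.3) over all its groups, with no block, and p-values were adjusted over all tested genes of a comparison. SE is the log2 fold change divided by the root of the F statistic. The code was tested on simulated data. Alternatives were DESeq2 1.42.0, DESeq2 size factors, no count filter, fitting only the compared groups, the replicate number as a block, marker covariates, and leaving out single libraries or the 3 with cardiac transcripts. A count of 0 allows up to 3 counts, and this covers counting error only. In tables with 3 libraries a group, same-numbered libraries deviated together in every pair only between double knockout and control cultures (correlations 0.116 to 0.336). The IDR table had 0.0392 in both pairs. With 2 libraries a group the deviations mirror each other, so these 2 values are 1 and the same. Libraries with unlike numbers did so too: control 2 with double knockout 3 had 0.334 and control 3 with double knockout 2 had 0.0877. The correlations therefore do not establish a pairing, the labels give none, and the replicate number was used as a block only in alternatives.

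The members and gene lists were chosen with earlier results of these data known. Named genes were the members, Runx1 and Runx2, up to 2 called genes of each list at each end with a mean of at least 1 CPM, and the 3 nearest genes of each member, of which a selection is printed. Kilobases of exon and exon overlaps are from GENCODE M21 on GRCm38, gene order is from RefSeq, and promoters are from RefSeq on GRCm38.p6, joined by symbol. Plots were drawn with matplotlib 3.10.9 under Python 3.11.15, with pandas 2.3.3.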

Additional observations from a re-analysis of the deposited data

Results flagged for a closer look

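Bgn moved in opposite directions in cultures labelled Runx1 knockout and in Adipoq-cre Runx1 knockout fat, but not in HFD fat labelled Runx1 knockout. Its log2 fold change against control cultures was 0.75 (SE 0.28), with 162, 162 and 165 CPM in knockout cultures and 80.7, 97.7 and 113 CPM in control cultures. In Adipoq-cre inguinal fat it was -0.51 (SE 0.14), with 195, 198 and 210.3 CPM in knockout fat and 320.1, 251 and 288 CPM in floxed fat. In HFD fat it was 0.18 (SE 0.24), with overlapping groups. The result was picked out because all 3 knockout libraries lay above all controls in the cultures and below all of them in the Adipoq-cre fat. The difference between the 2 effects was not tested. Only the Adipoq-cre fat value passed the adjusted threshold in its own comparison, and it did so in 5 of 14 settings.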

How the results depend on the processing

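Of 1338 member values recomputed under alternatives, 1195 kept their direction and their side of the threshold, 39 lost and 37 gained a call, and 67 changed sign. None of the 23 called member results changed sign over 356 alternative values. The causes of the changes below were not tested, and for 7 values DESeq2 gave no adjusted p.

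Without the 3 libraries with cardiac transcripts, which leaves 1 OEV library assumed to vary like the other groups, Dcn and Ogn with Runx1 overexpression had log2 fold changes of -1.53 and -0.12. With the replicate block 0 members were called in Runx1 knockout cultures. In the double knockout, DESeq2 called 5, the fit of only the compared groups 0 and the block within that pair, an alternative chosen after seeing the data, 0. The departure from additivity of Bgn was -0.014 without a count filter and -0.086 with the block. In iWAT Runx1 knockouts 0 members were called with no filter, with the block, and with B cell or muscle covariates. In iWAT Runx2 knockouts 2 were called with the muscle covariate. There Ogn was 0.024 with the block and 0.090 with the muscle covariate, Bgn and Omd were 0.19 and -0.24 with the B cell covariate, and with the adipocyte covariate Fmod was 0.25, Dcn -0.039, Lum 0.15, Bgn 0.35, Omd -0.91, Aspn -0.016 and Podn -0.36. In HFD fat Prelp was -0.0071 with the block, and Prelp and Podn were -0.18 and 0.13 with the muscle covariate. With the B cell covariate Fmod and Podn were 1.37 and 2.73 there, in a fit that called 0 of 15058 genes. B cell markers split the HFD groups without overlap (5.61 to 8.67 CPM against 213 to 538 CPM), so that fit can hardly tell the group from the covariate. For the Runx2 IDR, 1 member was called without a filter and 1 with the block. The block changed no other count of members called.

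Leaving out 1 library at a time, the members called ran from 4 to 7 with Runx1 overexpression, 6 to 8 with Runx2 overexpression and 6 to 9 between them. They ran from 0 to 3, 0 to 1 and 1 to 4 in Runx1, Runx2 and double knockout cultures, with 0 for additivity. They ran from 0 to 2 in iWAT Runx1, 0 to 4 in iWAT Runx2, 0 to 0 in HFD fat, 0 to 2 for the IDR and 0 to 2 for the difference between the iWAT knockouts. Signs changed with Runx1 overexpression for Dcn (-2.21 to 2.53) and Lum (-0.92 to 3.16), and between Runx2 and Runx1 for Lum (-0.52 to 3.28). They changed in knockout cultures for Podn (Runx1 -0.027 to 0.31, double -0.21 to 0.20), and in additivity for Prelp (-0.55 to 0.15) and Bgn (-0.33 to 0.33). In iWAT Runx1 fat the ranges were -0.78 to 0.22 for Omd, -0.56 to 0.19 for Prelp and -0.18 to 0.0031 for Podn, and in iWAT Runx2 fat -0.21 to 0.030 for Bgn, -0.19 to 0.76 for Omd and -0.34 to 0.41 for Ogn. In HFD fat they were -0.28 to 0.049 for Dcn, -0.34 to 0.17 for Lum, -0.21 to 0.097 for Ogn, -0.86 to 0.38 for Omd, -0.17 to 0.26 for Prelp, -0.40 to 0.23 for Aspn, -0.30 to 0.22 for Podn and -0.63 to 0.086 for Fmod. For the IDR they were -0.14 to 0.21 for Podn and -0.45 to 0.15 for Aspn. Few counts limit Fmod, Dcn, Lum and Omd in the cultures outside the overexpression groups.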
